A study of Mus musculus with 30 samples.

Results

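Gene expression in the mouse heart at embryonic day 14.5 (E14.5) was compared with that at E12.5. The comparison used the 3 libraries of each age and all genes, which makes 6 of the 30 libraries of a series that covers 10 ages from the embryo to the adult. Both groups were hearts of untreated mice labelled as wild type (WT), so that age was the labelled difference between them. Strain and sex were not among the labels used here. The labels also do not say whether a library held 1 heart or a pool, nor that each library had its own animals. The p-values of genes therefore measure only the spread between libraries. In the main fit this spread was estimated from all 30 libraries of the 10 ages, not from the 6 compared alone. RNA was selected with oligo-T beads, which bind poly(A) tails, and sequenced. The 6 libraries held 30934488 to 35333714 counts each.

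Between these ages the mouse heart completes the walls that divide its chambers. The cushions, which are swellings of matrix and mesenchymal cells inside the heart tube, are remodelled into valves and septa. Over the same days the outer, compact layer of the ventricular wall thickens while the inner trabeculae condense, and a coronary circulation is established. Cells that leave the epicardium, the outer covering of the heart, become fibroblasts and mural cells of vessels. In the blood, the large primitive red cells made in the yolk sac give way to definitive red cells made in the fetal liver, and the globin genes switch from embryonic to adult forms.

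At E14.5, genes of red cells, of the early embryo and of the cushions were lower than at E12.5. Genes of the vessels, of the matrix between cells, of fatty acid use and of calcium handling in muscle were higher. Of 19280 genes tested in edgeR by quasi-likelihood, 3527 (18.3%) had an adjusted p under 0.05. Of these, 2023 rose (10.5%) and 1504 fell (7.8%), and 401 of the rises (2.08%) and 213 of the falls (1.1%) were at least 2-fold. In 8279 genes (42.9%) the 3 libraries of one age did not overlap those of the other, and 3485 (18.1%) were both called and without overlap. Nearly all called genes were thus without overlap, so a lack of overlap given below adds no support to a call. The median log2 change of all genes tested was -0.001. Levels below are in CPM, counts brought to a common library total with TMM factors, which correct for differences in RNA composition. Changes are log2(E14.5/E12.5) ± SE from the fit, and a gene is said to have risen or fallen only where it was called. All gene lists below were chosen with earlier results of these data known, so their counts and medians are descriptions. Leaving out E12.5 replicate 2, E14.5 replicate 1 or E14.5 replicate 3, the genes that fell numbered 818, 936 and 773, and the genes that rose 1434, 1643 and 1448. No gene called in both the main fit and any of the other fits changed direction.

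**Figure D1:**
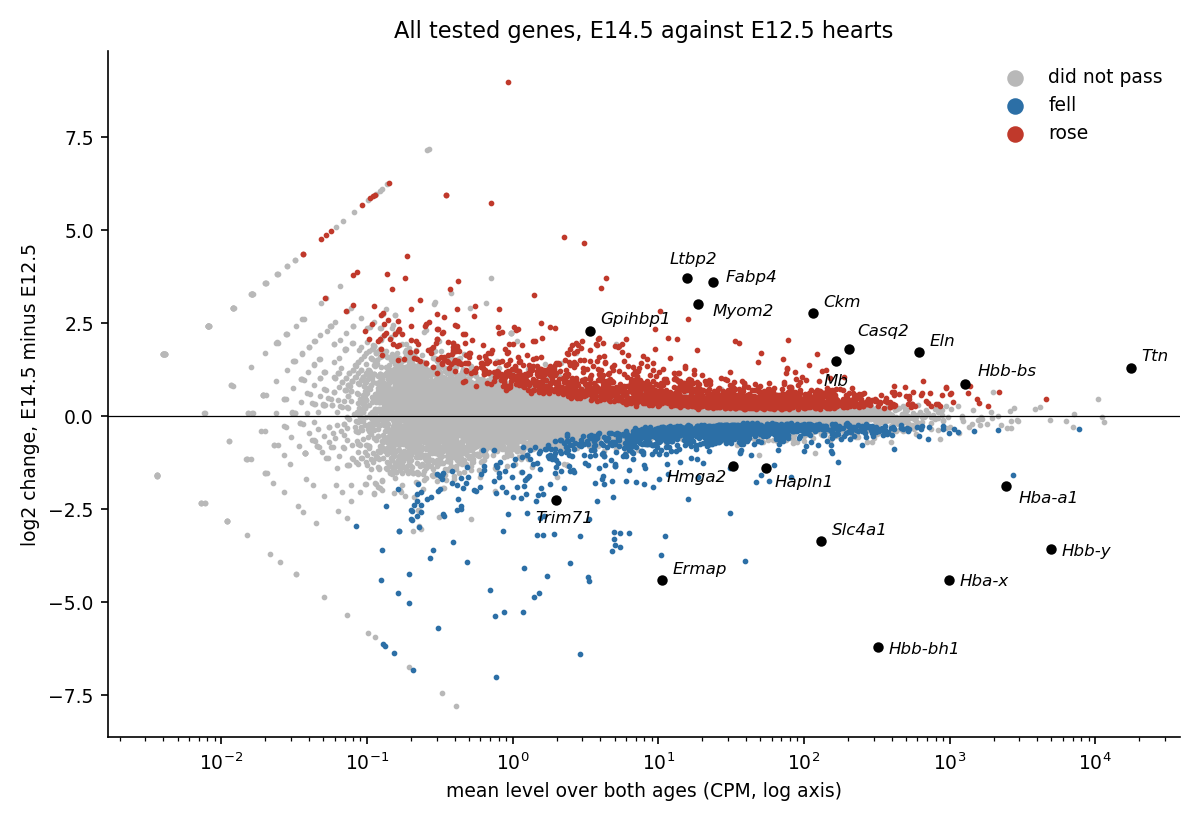
The log2 change from E12.5 to E14.5 (y axis) is plotted against the mean level in CPM (x axis, log scale) for the 19280 genes tested, with 1 point per gene and called genes in colour. The 2023 rises lie above 0 and the 1504 falls below, and the embryonic globins Hbb-bh1, Hba-x and Hbb-y lie among the lowest points.

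Transcript length moved with the comparison. Across 9095 protein-coding genes with at least 10 CPM, the Spearman correlation of the longest annotated transcript with the log2 change was 0.526. This is given as a description across genes, which share their libraries. In the shortest 20% of these genes (204 to 2225 nucleotides) the median change was -0.23, with 3.0% called higher and 25.8% lower. In the longest 20% (5858 nucleotides or more) it was 0.18, with 34.5% called higher and 3.2% lower. The level of these long transcripts relative to the short ones, as a difference of median log2 levels each centred over the series, was -0.345, -0.401 and -0.297 in the E12.5 libraries and 0.049, 0.012 and 0.041 in those of E14.5. This index separated the groups but did not run in order of age. It was again -0.336, -0.328 and -0.224 at E16.5, and the same correlation for E16.5 against E12.5, which uses the same E12.5 libraries, was 0.031. Whether the relation to length belongs to the hearts or to the RNA and libraries was not tested, since age and library cannot be told apart here. A second fit that removed the trend with length gave 1910 rises and 1113 falls, of which 1575 and 863 were also in the first fit. Removing the trend also removes any true tie between length and age. Its counts are given beside a group where they differ from the first by more than 1.5 times. Of the genes said below to have risen or fallen, Aldh1a2, Cenpf, H19, Ier2, Malat1, Mycn, Myl4, Notch3, Pdk3, Prdm16, Rpl30, Tbx20, Tcf21, Tet1 and Uqcrb were not called in it, with adjusted p from 0.06 (Notch3) to 0.865 (Uqcrb).

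**Figure D2:**
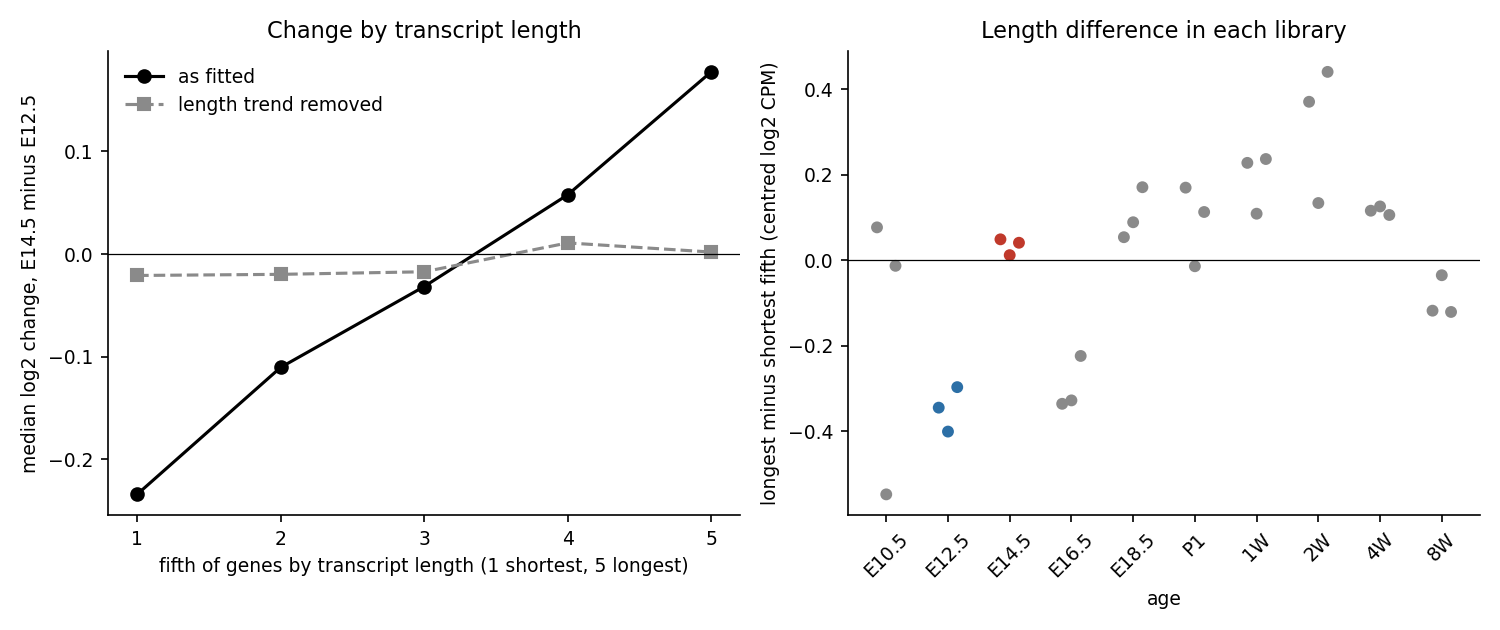
The panel on the left plots the median log2 change (y axis) of 5 bins of genes by transcript length (x axis), as fitted (circles) and with the length trend removed (squares), and the panel on the right plots the level of the longest relative to the shortest bin (centred log2 CPM) in each of the 30 libraries by age. As fitted, the median goes from -0.23 in the shortest bin to 0.18 in the longest, and the 3 E12.5 libraries lie between -0.401 and -0.297, below the 3 of E14.5.

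The tissue label was checked against marker genes. The 12 cardiomyocyte markers summed to 23560.0 to 24210.0 CPM per library at E12.5 and 40196 to 40585 at E14.5. Of these sums, Ttn alone held a mean of 10149 CPM at E12.5 and 25040 CPM at E14.5. The median log2 change of the 12 markers was 0.31. Markers of liver (4.97 to 6.29 and 4.25 to 5.42 CPM in all), of lung and foregut epithelium (6.66 to 11.9 and 5.85 to 12.4), of skeletal muscle (15.6 to 17.6 and 13.3 to 14.3) and of lymphocytes and granulocytes (2.67 to 4 and 2.32 to 2.85) were low at both ages. Sex-linked transcripts differed between libraries. Xist, the RNA of the inactive X chromosome, stood at 234, 265 and 796 CPM at E12.5 and 657, 0.295 and 536 CPM at E14.5. Ddx3y, a gene of the Y chromosome, stood at 24.3, 22.4 and 0.13 CPM at E12.5 and 21, 39.4 and 24.9 CPM at E14.5. E12.5 replicate 3 thus had almost no Y transcripts and E14.5 replicate 2 almost no Xist, whereas the other 4 libraries carried both. None of 5 sex-linked transcripts was called between the ages in edgeR or in DESeq2, and none had an unadjusted p under 0.05. In whole hearts, fewer cells of a type and less RNA per cell cannot be told apart, and this holds for every group below.

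The largest falls were mainly in red cell genes, and the largest rises in genes of the matrix and of muscle. Among called genes that averaged 10 CPM or more at one age and had no overlap between libraries, the 15 largest rises included 6 genes of the extracellular matrix. These were Ltbp2, Acan, Dpt, Col14a1, Col15a1 and Tnxb. Ltbp2, a latent TGF-beta binding protein of elastic fibres, stood at 2.42, 1.91 and 2.35 CPM at E12.5 and 27.8, 27.1 and 32.3 CPM at E14.5 (log2 change 3.71 ± 0.22, adjusted p = 8.8e-12). The libraries of the ages were far apart. Fndc1 (2.07 ± 0.10), Prnd, which encodes the prion-like protein doppel (2.10 ± 0.25), Cd109, a membrane protein of the alpha-2-macroglobulin family (1.78 ± 0.11), and Clca3a2, a member of the chloride channel accessory family (2.82 ± 0.39), were also among them. Others were the muscle genes Myom2, Ckm and Casq2 and the lipid-binding gene Fabp4. Among the 15 largest falls stood the globins Hbb-bh1, Hba-x, Hbb-y and Hba-a1 and the red cell surface and skeleton genes Kel, Ermap, Epb42, Slc4a1 and Add2. Hsd3b6, a steroid dehydrogenase, was there too, at 74.5, 66.7 and 78.9 CPM at E12.5 and 5.5, 6.24 and 2.95 CPM at E14.5 (-3.90 ± 0.27, adjusted p = 1.3e-10). Lack of overlap was a condition for every gene in these rankings. Among the called genes with the highest counts, Ttn, Col3a1, Atp2a2 and Tnnt2 rose, and Hba-x, Hbb-y, Hba-a1, Hba-a2 and Actb fell. Actb, the cytoplasmic beta-actin, fell by 0.38 ± 0.10 (adjusted p = 0.0055). Malat1 and Nedd4 rose and H19 fell as well. Malat1, a nuclear noncoding RNA, lost its call when E12.5 replicate 2 or E14.5 replicate 3 was left out (adjusted p up to 0.073), and Nedd4, a ubiquitin ligase, lost its call when E12.5 replicate 1, E12.5 replicate 2, E14.5 replicate 2 or E14.5 replicate 3 was left out (adjusted p up to 0.086).

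Genes of red cells and platelets fell together. All 3 embryonic globins, 2 of 4 adult globins, 16 of 18 erythroid markers and 4 of 7 megakaryocyte and platelet markers fell, and none rose. The median changes of these lists were -4.41, -1.11, -1.82 and -1.52, against -0.001 for all genes. The globin genes are clustered in order of use, the alpha-type genes on chromosome 11 and the beta-type on chromosome 7. Upstream of them and of many red cell genes lie short motifs that are textbook binding sites: GATAA for GATA1, CACCC for KLF1 and CCAAT for NF-Y. The sequences of 3 promoters are shown because the levels of these globins differed in direction between the ages, with 250 bases before and 50 after the start of each gene (RefSeq, GRCm38.p6, 5′ to 3′ on the gene's strand). Capitals mark these motifs on either strand. For Hba-x, the gene span given further below comes from another annotation, GENCODE, and begins inside this window, at 32276400.
Hba-x (chr11:32276350-32276649, plus strand): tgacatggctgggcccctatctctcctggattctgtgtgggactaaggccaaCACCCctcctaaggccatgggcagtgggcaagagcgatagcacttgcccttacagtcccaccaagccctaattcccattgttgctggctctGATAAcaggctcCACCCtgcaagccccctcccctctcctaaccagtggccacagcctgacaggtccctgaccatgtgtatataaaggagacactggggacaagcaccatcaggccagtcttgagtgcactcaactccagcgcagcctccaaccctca
Hbb-y (chr7:103853158-103853457, minus strand): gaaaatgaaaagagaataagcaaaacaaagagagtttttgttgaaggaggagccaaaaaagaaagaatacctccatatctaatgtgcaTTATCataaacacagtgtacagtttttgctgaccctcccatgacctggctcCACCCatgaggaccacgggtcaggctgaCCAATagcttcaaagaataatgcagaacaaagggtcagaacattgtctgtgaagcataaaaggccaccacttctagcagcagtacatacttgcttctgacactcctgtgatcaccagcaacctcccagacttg
Hbb-bs (chr7:103827879-103828178, minus strand): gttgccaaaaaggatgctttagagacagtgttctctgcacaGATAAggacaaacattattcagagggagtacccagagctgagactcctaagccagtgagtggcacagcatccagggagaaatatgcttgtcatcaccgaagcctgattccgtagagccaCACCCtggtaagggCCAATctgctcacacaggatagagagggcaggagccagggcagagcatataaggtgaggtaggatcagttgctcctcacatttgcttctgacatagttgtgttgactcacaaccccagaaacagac
Each of the 3 windows held 1 GATAA. All 6 globin promoters matched by symbol held GATAA and CACCC and 5 held CCAAT, against 25.4%, 57.5% and 37.4% of 32851 promoters of the same length. Of 17 promoters of erythroid markers, 10 (58.8%) held GATAA, 12 (70.6%) CACCC and 7 (41.2%) CCAAT. A match is a description of the letters only. No match overlapped another in the 3 windows shown.

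Hbb-bh1, an embryonic beta-type globin (chromosome 7, 103841637 to 103843164 in GRCm38), stood at 615, 662 and 642 CPM at E12.5 and 10.1, 10.9 and 4.81 CPM at E14.5 (-6.22 ± 0.44, adjusted p = 1.4e-07). All 3 E14.5 libraries were far below all 3 E12.5 libraries. Hba-x, the embryonic zeta globin (chromosome 11, 32276400 to 32278116), stood at 1806, 1876 and 1969 CPM at E12.5 and 92.5, 118 and 55.8 CPM at E14.5 (-4.41 ± 0.21, adjusted p = 1.9e-10). Hbb-y, the epsilon-like globin, stood at 8790.4, 8905 and 9644 CPM at E12.5 and 782, 973 and 524 CPM at E14.5 (-3.58 ± 0.31, adjusted p = 3e-07). E14.5 replicate 3 was the lowest library for each of these 3 genes. Of the adult alpha globin genes, Hba-a1 stood at 3207, 4275 and 4042 CPM at E12.5 and 1027, 1229 and 857 CPM at E14.5 (-1.89 ± 0.38, adjusted p = 0.0015). Hba-a2 fell by 1.59 ± 0.39 (adjusted p = 0.0068). The adult beta globin gene Hbb-bs was higher at E14.5, at 799, 980.03 and 969 CPM at E12.5 and 1476, 1917 and 1562 CPM at E14.5, without overlap between the ages. It did not pass (0.85 ± 0.40, adjusted p = 0.15), but it passed with the length trend removed (1.19, adjusted p = 0.022) and in a fit on the 6 samples alone. Hbb-bt, its neighbour, did not pass (-0.63 ± 0.42, adjusted p = 0.34). In the fit on the 6 samples alone, 1 of the 4 adult globins rose and 3 fell, Hbb-bt among them. Globin genes share sequence, so the split of reads between them is uncertain.

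As a share of the counts of 10 globin genes, which does not depend on scaling between libraries, the embryonic globins made up 57.0%, 52.1% and 53.4% in the E12.5 libraries and 16.8%, 16.4% and 12.2% in those of E14.5. The means were 54.2% ± 2.53 and 15.2% ± 2.55 (SD, n = 3), with no overlap. The exact permutation test gave p = 0.1, which is the smallest that 3 against 3 libraries allow, and 0.133 adjusted over 4 shares. Between 197929 and 1055631 globin counts stood behind each share.

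Slc4a1, the anion exchanger of the red cell membrane, stood at 225, 242 and 255 CPM at E12.5 and 24.6, 28.6 and 16.5 CPM at E14.5 (-3.37 ± 0.34, adjusted p = 4.3e-07). Ermap, an erythroid membrane protein, stood at 20.6, 19.5 and 20.5 CPM at E12.5 and 1.03, 1.13 and 0.677 CPM at E14.5 (-4.41 ± 0.25, adjusted p = 8.8e-15). The groups were far apart in both genes. Kel and Rhd, which carry blood group antigens, fell by 4.44 ± 0.28 and 3.46 ± 0.26 on the log2 scale, and Epb42, protein 4.2 of the membrane skeleton, by 3.73 ± 0.29. Gata1, the master transcription factor of red cells and megakaryocytes, fell from 2.92 ± 0.635 to 0.314 ± 0.229 CPM (mean ± SD, n = 3; -3.20 ± 0.49, adjusted p = 1.5e-05). Not all genes of the list fell. Tfrc, the transferrin receptor, which many dividing cells use for iron uptake, stood at 113, 87.8 and 99.4 CPM at E12.5 and 115, 97.4 and 107 CPM at E14.5 (0.09 ± 0.27, adjusted p = 0.87), with overlapping libraries. Sptb, which encodes beta-spectrin, did not pass (-0.23 ± 0.12, adjusted p = 0.18). Car2, a carbonic anhydrase of red cells, was outside the list and fell from 53.1 ± 0.516 to 8.76 ± 1.23 CPM (-2.60 ± 0.20). Among platelet genes, Pf4, platelet factor 4, stood at 10.4, 13.3 and 9.09 CPM at E12.5 and 3.14, 4.2 and 2.25 CPM at E14.5 (-1.77 ± 0.22, adjusted p = 1.1e-06), and Itga2b, an integrin of platelets, fell by 1.54 ± 0.29. Both had separate libraries at the ages.

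At the next age these genes followed different courses. Hba-a1 had a mean of 3841 CPM at E12.5 and 1038 at E14.5, and it stood at 4689 at E16.5. In that order of ages, the means of Slc4a1 were 240.3, 23.2 and 57 CPM. Those of Hbb-bh1 were 639.9, 8.6 and 0.907 CPM, and those of Hbb-bs 916, 1652 and 11210.0 CPM. The amount of blood left in the dissected hearts is not given in the labels, and its part in these levels was not tested.

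**Figure D3:**
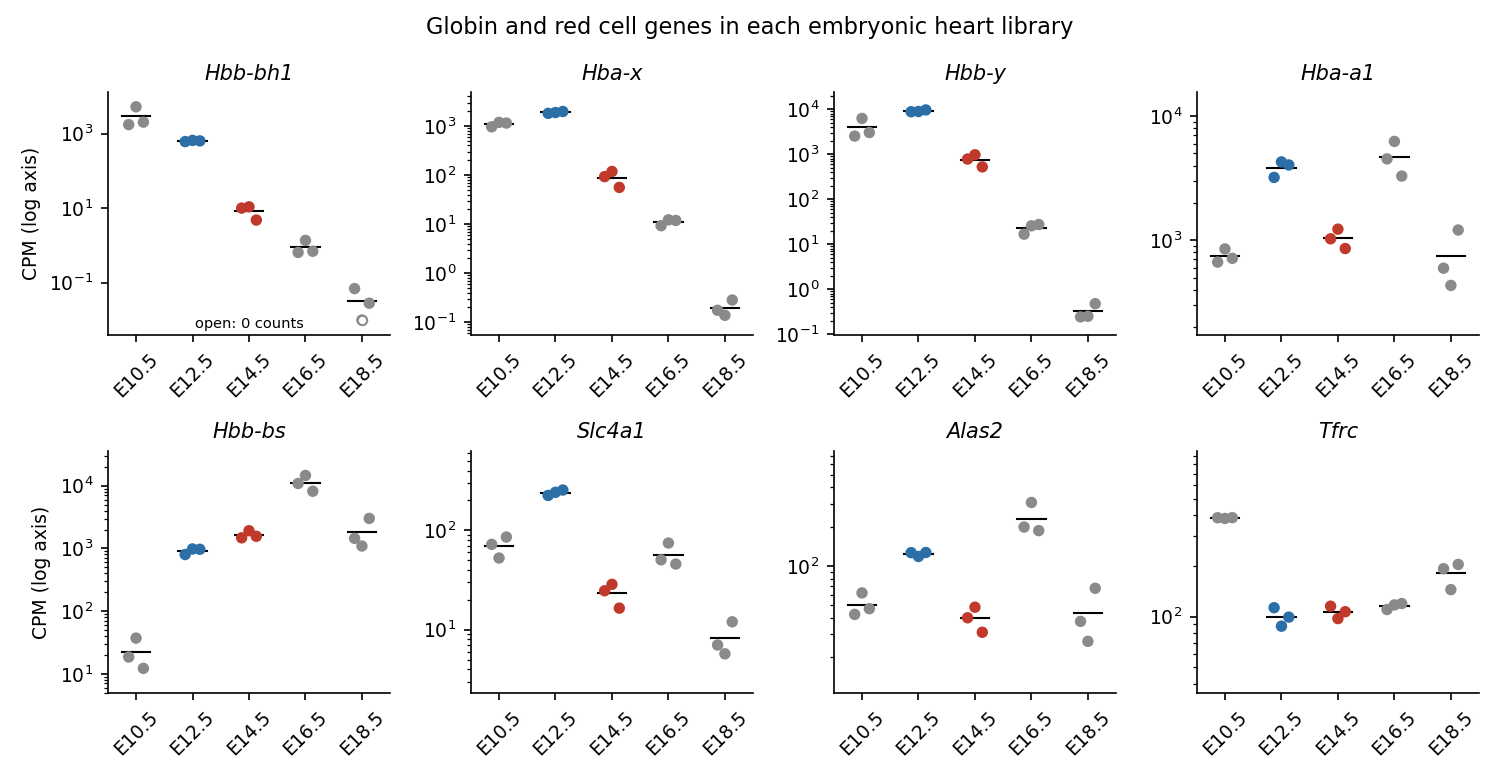
Levels in CPM (y axis, log scale) of 8 globin and red cell genes are plotted for each library of the 5 embryonic ages (x axis), with 1 point per library, a line at the mean and an open point where the count was 0. Hbb-bh1 lies at 615 to 662 CPM at E12.5 and at 4.81 to 10.9 at E14.5, Hbb-bs is higher in every E14.5 library, and Tfrc overlaps between the ages.

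Heart muscle genes changed unevenly. Calcium handling genes gave 13 rises and no fall of 22 (median 0.37), cardiomyocyte markers 7 rises and no fall of 12 (median 0.31), and sarcomere and Z-disc genes 9 rises and 1 fall of 32 (median 0.18). Casq2, calsequestrin, which stores calcium in the sarcoplasmic reticulum, stood at 101, 89.5 and 81.2 CPM at E12.5 and 303, 309 and 338 CPM at E14.5 (1.81 ± 0.10, adjusted p = 6.3e-15). The E14.5 libraries were all above those of E12.5. Its partner Trdn, triadin, rose by 0.84 ± 0.16, Ryr2, the release channel of that store, by 0.61 ± 0.12, and Cacna1c, the L-type calcium channel, by 0.71 ± 0.09. With the length trend removed, the change was 0.27 for Ryr2 (adjusted p = 0.017), 0.42 for Cacna1c and 1.92 for Casq2. The calcium handling list, with a median transcript of 5599 nucleotides, then gave 10 rises and no fall (median 0.26). Sln, sarcolipin, an inhibitor of the calcium pump found mainly in atria, stood at 8.35, 9.83 and 8.24 CPM at E12.5 and 20.5, 19 and 25.1 CPM at E14.5 (1.29 ± 0.16, adjusted p = 1.7e-06). All E14.5 libraries were again higher. Jph2, which ties the store to the surface membrane (0.04 ± 0.08, adjusted p = 0.77), and Calr, an embryonic calcium buffer (-0.07 ± 0.13, adjusted p = 0.79), did not pass.

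In the sarcomere the largest rise was in Myom2, M-protein of the M-band (chromosome 8, 15057653 to 15133541). It stood at 3.57, 4.54 and 4.09 CPM at E12.5 and 30.4, 30.4 and 38.7 CPM at E14.5 (3.02 ± 0.18, adjusted p = 2.5e-12). Ttn, titin, the giant spring of the sarcomere, stood at 10753, 9238 and 10457 CPM at E12.5 and 24983, 24661 and 25476 CPM at E14.5 (1.30 ± 0.17, adjusted p = 1.2e-06), and with the length trend removed the change was 0.73 (adjusted p = 1e-07). The groups did not overlap in either gene. Tnnt2, cardiac troponin T, rose by 0.36 ± 0.10, and Ldb3, a Z-disc protein, by 0.43 ± 0.09. Tnni3, cardiac troponin I, rose by 0.27 ± 0.08 (adjusted p = 0.023), a call lost when E12.5 replicate 1, E12.5 replicate 3, E14.5 replicate 2 or E14.5 replicate 3 was left out (adjusted p up to 0.11). The myosin heavy chain genes Myh6 (0.24 ± 0.11, adjusted p = 0.13) and Myh7 (0.47 ± 0.21, adjusted p = 0.13) did not pass, and neither did Actc1, cardiac actin (-0.10 ± 0.11, adjusted p = 0.6). The single fall, Myl4, the atrial and embryonic light chain (-0.41 ± 0.14, adjusted p = 0.034), lost its call when any 1 library but E14.5 replicate 2 was left out (adjusted p up to 0.14) and was not called with the length trend removed (adjusted p = 0.09). In a fit on the 6 samples alone, 18 sarcomere genes rose and 4 fell.

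Myh6 made up 29.9%, 31.5% and 29.8% of Myh6 and Myh7 counts at E12.5 and 28.0%, 27.3% and 26.0% at E14.5, and Tnni3 made up 29.99%, 26.2% and 27.5%, then 31.8%, 31.1% and 33.0%, of Tnni1 and Tnni3 counts. Neither share overlapped between the ages, and each had an exact permutation p of 0.1, the smallest possible (0.133 adjusted over 4 shares). The Myh6 share was thus lower by 3.30 points at E14.5 and the Tnni3 share higher by 4.06 points. Myh6 and Myh7 share sequence, which leaves the split of their reads uncertain.

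Genes for creatine and oxygen storage gave 4 rises and 2 falls of 8, or no fall without E14.5 replicate 1 and 1 when either E12.5 replicate 2 or E14.5 replicate 3 was left out or with the length trend removed. Ckm, the muscle creatine kinase (chromosome 7, 19404776 to 19422841), stood at 28, 30.3 and 30.3 CPM at E12.5 and 183, 200.2 and 221 CPM at E14.5 (2.77 ± 0.13, adjusted p = 1.3e-16). Ckb, the brain-type kinase, fell (-0.50 ± 0.15, adjusted p = 0.019), a call lost when E12.5 replicate 2, E14.5 replicate 1 or E14.5 replicate 3 was left out (adjusted p up to 0.097). Mb, myoglobin, which stores oxygen in muscle, stood at 84.9, 89.3 and 85.7 CPM at E12.5 and 223, 244 and 264 CPM at E14.5 (1.49 ± 0.13, adjusted p = 2.5e-10). The E14.5 libraries of Ckm and Mb were all above those of E12.5.

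Ion channel, connexin and conduction genes gave 7 rises and 1 fall of 22, or 3 rises and 2 falls without E14.5 replicate 3, 4 rises when any 1 E12.5 library was left out, and 2 falls with the length trend removed. Kcnq1, a pore subunit of the slow delayed rectifier, stood at 11.9, 10.8 and 10 CPM at E12.5 and 19.8, 18 and 18.6 CPM at E14.5 (0.78 ± 0.11, adjusted p = 1.7e-06). Its accessory subunit Kcne1 stood at 17.2, 15.3 and 15.6 CPM at E12.5 and 29.1, 28.3 and 30.7 CPM at E14.5 (0.87 ± 0.10, adjusted p = 1.1e-07). Both subunits of this potassium channel were higher in every E14.5 library. Gja1, connexin 43 of the working muscle, rose by 0.36 ± 0.11 (adjusted p = 0.021), a call lost when E12.5 replicate 2, E12.5 replicate 3, E14.5 replicate 1 or E14.5 replicate 3 was left out (adjusted p up to 0.1). Shox2, a factor of the sinus node, fell by 0.62 ± 0.17 (adjusted p = 0.0088), whereas the pacemaker channel gene Hcn4 (0.05 ± 0.18, adjusted p = 0.88) and Gja5, connexin 40 of trabeculae and the conduction system (0.14 ± 0.14, adjusted p = 0.56), did not pass.

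Markers of trabeculae gave no rise and 2 falls of 12, and genes of the compact layer 3 rises and 2 falls of 8. Hand1, a transcription factor of the left ventricle and outflow tract, stood at 11.9, 11.5 and 11.9 CPM at E12.5 and 4.14, 4.87 and 4.4 CPM at E14.5 (-1.39 ± 0.19, adjusted p = 2e-06). Cited1, a transcriptional coactivator of trabecular muscle, stood at 125, 139.8 and 129 CPM at E12.5 and 67.8, 73.1 and 66.1 CPM at E14.5 (-0.93 ± 0.12, adjusted p = 8.9e-07). Their libraries were separate, whereas Nppa, atrial natriuretic peptide, did not pass (-0.26 ± 0.12, adjusted p = 0.14). Of the compact layer, Hey2 (0.29 ± 0.10, adjusted p = 0.04) and Tbx20 (0.27 ± 0.09, adjusted p = 0.04) each lost its call when any 1 of the 6 libraries was left out (adjusted p up to 0.15 and 0.12). Prdm16, a further regulator of the compact layer (0.45 ± 0.13, adjusted p = 0.011), lost its call when E12.5 replicate 1 or E14.5 replicate 2 was left out (adjusted p up to 0.055). Mycn, which drives growth of the compact wall, fell (-0.42 ± 0.13, adjusted p = 0.02), a call lost when E12.5 replicate 2, E14.5 replicate 1 or E14.5 replicate 3 was left out (adjusted p up to 0.09). The rises numbered 0 without E12.5 replicate 1 and 1 when any other library was left out, and the falls 1 without E12.5 replicate 2, E14.5 replicate 1 or E14.5 replicate 3. With the length trend removed, 1 of the 8 rose and 1 fell. Ventricular markers gave 3 rises and 1 fall of 10, with 1 rise when any 1 library was left out, and atrial markers the rise of Sln and the fall of Myl4 among 12. The atrial markers had a median change of -0.21 and summed to 3644 to 3960 CPM per library at E12.5 and 2927 to 3118 at E14.5. In a fit on the 6 samples alone, 1 atrial marker rose and 6 fell. With the length trend removed, 1 rose and none fell (median 0.02). Among 32 cardiac transcription factors 8 rose and 6 fell. Prox1, which is used in muscle and in lymphatic vessels, rose by 0.72 ± 0.11, Myocd, myocardin, by 0.58 ± 0.09, and Tead1, a partner of the Hippo pathway, by 0.59 ± 0.11. Gata5 fell by 0.72 ± 0.12 and Tbx2, which keeps muscle of the canal between atria and ventricles undifferentiated, by 0.52 ± 0.11. Gata4 (-0.09 ± 0.07, adjusted p = 0.41), Nkx2-5 (-0.23 ± 0.10, adjusted p = 0.11) and Tbx5 (0.05 ± 0.10, adjusted p = 0.78), core factors of heart muscle, did not pass.

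**Figure D4:**
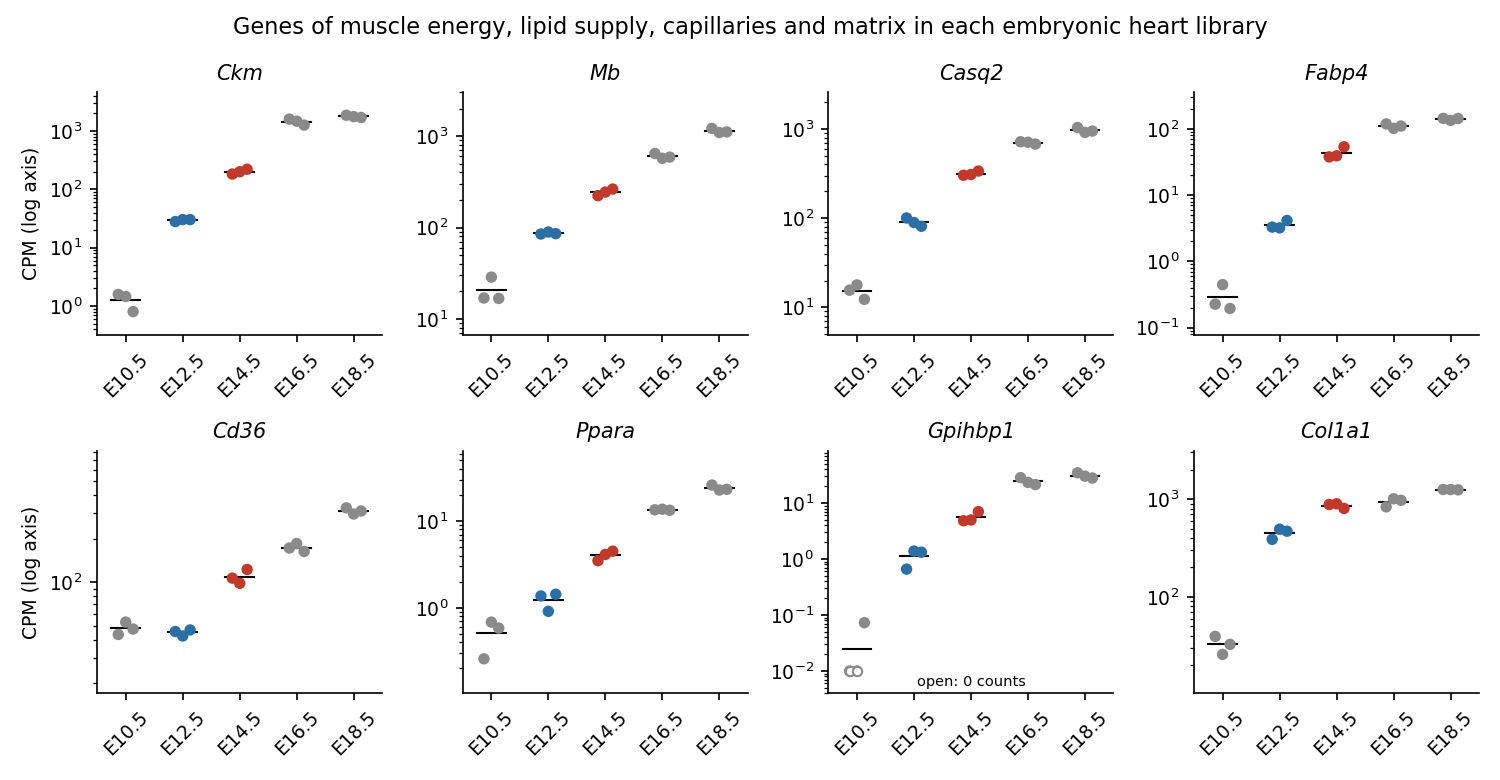
Levels in CPM (y axis, log scale) of 8 genes of muscle, fatty acid use, capillaries and matrix that rose from E12.5 to E14.5 are plotted for each library of the 5 embryonic ages (x axis), with 1 point per library, a line at the mean and an open point where the count was 0. Ckm lies at 28.0 to 30.3 CPM at E12.5 and 183 to 221 at E14.5, and in all 8 genes the 3 E14.5 points lie above the 3 of E12.5.

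Genes for the uptake and oxidation of fatty acids gave 14 rises and no fall of 26 (median 0.26). Fabp4, a fatty acid binding protein of capillary endothelium and fat cells, stood at 3.3, 3.21 and 4.15 CPM at E12.5 and 37.9, 39.4 and 53.9 CPM at E14.5 (3.62 ± 0.16, adjusted p = 7.8e-16). The ages were far apart in every library. Cd36, the main carrier of fatty acids across the membrane, stood at 45.5, 42.3 and 46.6 CPM at E12.5 and 107, 98.2 and 123 CPM at E14.5 (1.28 ± 0.10, adjusted p = 1.2e-11). Lpl, lipoprotein lipase, which frees fatty acids from circulating fat, rose by 0.79 ± 0.10. Acsl1, which activates them to acyl-CoA, rose by 0.89 ± 0.12, Cpt1a, which commits them to mitochondria, by 0.57 ± 0.09, and Acadl, a dehydrogenase of beta-oxidation, by 0.73 ± 0.07. Later enzymes of the same path, Echs1 (-0.12 ± 0.09), Hadh (0.08 ± 0.08) and Acads (-0.19 ± 0.11), did not pass (adjusted p = 0.42, 0.55 and 0.23).

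Regulators of metabolism gave 9 rises and 1 fall of 18 (median 0.35). The fall, in Pdk3, a kinase of pyruvate dehydrogenase (-0.24 ± 0.08, adjusted p = 0.03), lost its call when any 1 library but E12.5 replicate 3 was left out (adjusted p up to 0.15) and was not called with the length trend removed. Ppara, the nuclear receptor that switches on fatty acid oxidation, stood at 1.37, 0.912 and 1.44 CPM at E12.5 and 3.49, 4.13 and 4.5 CPM at E14.5 (1.71 ± 0.18, adjusted p = 1.4e-08). Perm1, a muscle regulator of the same programme, stood at 1.86, 2.06 and 2.44 CPM at E12.5 and 8.78, 7.05 and 7.86 CPM at E14.5 (1.89 ± 0.12, adjusted p = 2.3e-13). Every E14.5 library was above every E12.5 library in both. Ppargc1a, a coactivator of mitochondrial genes, rose by 0.65 ± 0.11, and Pdk4, which blocks pyruvate dehydrogenase, by 1.03 ± 0.20. Esrra (-0.02 ± 0.10), Tfam (0.03 ± 0.08) and Nrf1 (-0.13 ± 0.09), regulators of mitochondrial genes as well, did not pass (adjusted p = 0.9, 0.83 and 0.36).

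Genes of the TCA cycle and of the entry of pyruvate into it gave 2 rises of 23, and nuclear genes of the respiratory chain 2 rises and 1 fall of 38 (median -0.13). The rises of Idh2, of the cycle (0.28 ± 0.08, adjusted p = 0.012), and Pdha1, of pyruvate dehydrogenase (0.27 ± 0.08, adjusted p = 0.017), were small. The first lost its call when E12.5 replicate 1, E12.5 replicate 3, E14.5 replicate 2 or E14.5 replicate 3 was left out (adjusted p up to 0.067), and the other lost its call when E12.5 replicate 2, E14.5 replicate 2 or E14.5 replicate 3 was left out (adjusted p up to 0.098). Cox8b, a muscle form of a subunit of cytochrome oxidase, stood at 3.38, 2.3 and 2.87 CPM at E12.5 and 6.32, 5.23 and 7.35 CPM at E14.5 (1.15 ± 0.19, adjusted p = 8.1e-05), with separate groups. Uqcrb, a complex III subunit, fell (-0.31 ± 0.10, adjusted p = 0.022), a call lost when E12.5 replicate 1 or E14.5 replicate 2 was left out (adjusted p up to 0.21). Its change turned to 0.04 with the length trend removed (adjusted p = 0.86). The median transcript of the respiratory chain genes was 1404 nucleotides long, and these lists depended on the fit. With the length trend removed, 13 genes of the TCA cycle and pyruvate list and 7 respiratory chain genes rose and none fell. In a fit on the 6 samples alone, by contrast, 16 respiratory chain genes fell. In the edgeR fit on all 30 samples none of 13 mitochondrially encoded transcripts was called, while 1 was lower at an unadjusted p under 0.05 and 1 fell in DESeq2. In other edgeR fits, 1 fell without E12.5 replicate 2, 1 rose with the length trend removed and 3 rose with this and the 6 samples alone. These transcripts made up 3.60%, 2.73% and 2.97% of all counts at E12.5 and 3.13%, 2.86% and 3.08% at E14.5, overlapping between the ages (exact permutation p = 0.9).

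Genes of glucose use changed in both directions, with 5 rises and 2 falls of 23, or no fall when either E12.5 replicate 2 or E14.5 replicate 3 was left out and 1 without any other library or with the length trend removed. Slc2a4, the insulin-responsive glucose transporter of muscle, stood at 13.5, 16.2 and 13.9 CPM at E12.5 and 20.6, 19.2 and 18.1 CPM at E14.5 (0.41 ± 0.11, adjusted p = 0.0068). Slc2a1, the transporter used by many embryonic cells, stood at 195, 194 and 188 CPM at E12.5 and 148, 140.4 and 124 CPM at E14.5 (-0.49 ± 0.15, adjusted p = 0.024). The groups did not overlap in either, but Slc2a1 lost its call when any 1 library but E14.5 replicate 1 was left out (adjusted p up to 0.12). Hk2 (0.18 ± 0.11, adjusted p = 0.29) and Ldha (0.02 ± 0.11, adjusted p = 0.94), of glycolysis, did not pass. A list of 18 hypoxia genes held targets and also the factors Hif1a, Epas1 and Hif3a. Of these 18 genes 6 rose and none fell, or 5 rose when any 1 of the 6 libraries was left out. Ndrg1 stood at 11.3, 11.6 and 10.1 CPM at E12.5 and 22.2, 23 and 26.7 CPM at E14.5 (1.12 ± 0.11, adjusted p = 1.9e-09). Egln3, an oxygen sensor that is itself induced by low oxygen, rose by 0.98 ± 0.13 and Vegfa, the growth factor of vessels, by 0.56 ± 0.10. Epas1, the hypoxia-inducible factor 2 alpha of endothelium, rose by 0.91 ± 0.08, while Hif1a did not pass (0.22 ± 0.08, adjusted p = 0.065). Ankrd37 (0.17 ± 0.24, adjusted p = 0.7) and Ddit4 (-0.12 ± 0.14, adjusted p = 0.61), targets of the same factors, did not pass. In a fit on the 6 samples alone 10 genes of this list rose.

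**Figure D5:**
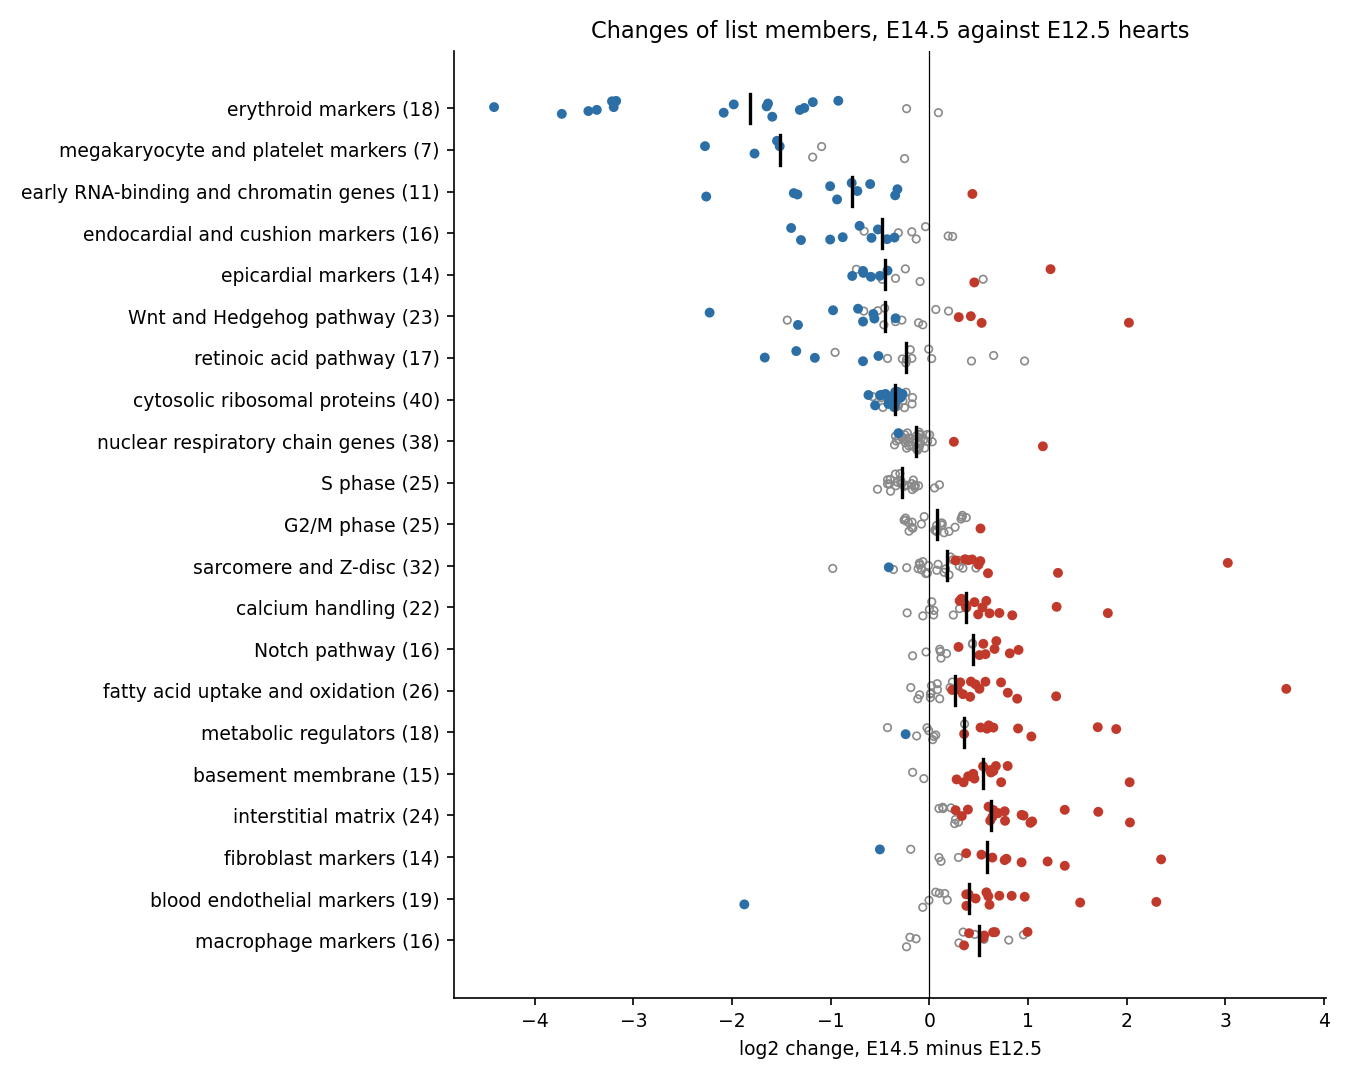
The log2 change from E12.5 to E14.5 (x axis) of each tested member of 21 gene lists (y axis, with the number of members) is plotted, with 1 point per gene, red where it rose, blue where it fell and open where it did not pass, and a bar at each list's median. Blue points fill the erythroid row (16 of 18 fell, median -1.82), and red points the basement membrane row (13 of 15 rose, median 0.54).

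Markers of blood vessels rose, with 12 rises and 1 fall of 19 (median 0.40). Gpihbp1, which holds lipoprotein lipase on the capillary wall, stood at 0.661, 1.39 and 1.33 CPM at E12.5 and 4.83, 4.99 and 7.04 CPM at E14.5 (2.30 ± 0.22, adjusted p = 4.1e-08). Apln, apelin, a peptide of sprouting coronary vessels, stood at 4.04, 4.49 and 4.37 CPM at E12.5 and 10.8, 12.2 and 14.2 CPM at E14.5 (1.53 ± 0.19, adjusted p = 1.3e-06). Its receptor gene Aplnr, found on vessels that grow from the sinus venosus, stood at 19.5, 22.2 and 18.2 CPM at E12.5 and 37.4, 40.5 and 39.3 CPM at E14.5 (0.97 ± 0.11, adjusted p = 5.9e-08). The E14.5 libraries of all 3 genes lay above those of E12.5. The pan-endothelial genes Cdh5, VE-cadherin, and Pecam1 rose less, by 0.60 ± 0.08 and 0.40 ± 0.09, and the receptors Tek (0.06 ± 0.09, adjusted p = 0.68) and Tie1 (0.10 ± 0.08, adjusted p = 0.45) did not pass. Car4, a carbonic anhydrase of capillaries, fell, with 2.03, 1.98 and 1.63 CPM at E12.5 and 0.718, 0.492 and 0.314 CPM at E14.5 (-1.88 ± 0.29, adjusted p = 2.4e-05). It stood at 10.5 CPM at E10.5.

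Notch signalling, by which endothelial cells become arterial and the endocardium instructs the muscle beneath it, gave 8 rises and no fall of 16 genes (median 0.44). Of the ligands, Dll4, which marks arterial and tip cells, stood at 12.5, 14 and 12.2 CPM at E12.5 and 20.2, 20.9 and 20.1 CPM at E14.5 (0.66 ± 0.10, adjusted p = 2.1e-05). Jag1 did not pass (-0.03 ± 0.10, adjusted p = 0.86). Of the receptors, Notch3, of mural cells, rose by 0.68 ± 0.16, and Notch4, of endothelium, by 0.55 ± 0.11. Of the targets, Nrarp, a feedback inhibitor, stood at 7.51, 6.42 and 10.2 CPM at E12.5 and 15.5, 15.5 and 14.1 CPM at E14.5 (0.90 ± 0.18, adjusted p = 0.00079), and Heyl rose by 0.81 ± 0.13. Hes1 (0.11 ± 0.19, adjusted p = 0.75) and Hey1 (0.10 ± 0.12, adjusted p = 0.61), targets as well, did not pass. Of the vascular growth factors, Pdgfb, by which endothelium recruits mural cells, stood at 4.75, 4.58 and 4.83 CPM at E12.5 and 10.4, 12.4 and 13 CPM at E14.5 (1.34 ± 0.11, adjusted p = 7.9e-11), with separate groups. Angpt2, a ligand of Tek, rose by 0.71 ± 0.14 as well. In the list of FGF, VEGF and PDGF genes, 8 of 26 rose and 1 fell, or 5 rose when either E12.5 replicate 2 or E14.5 replicate 3 was left out. The fall, in Fgf9, a growth factor of the epicardium and endocardium, lost its call when E12.5 replicate 1, E14.5 replicate 2 or E14.5 replicate 3 was left out (adjusted p up to 0.16).

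Of 14 mural and smooth muscle markers, 4 rose and 2 fell. The rises were of Kcnj8, Abcc9, Cspg4 and Notch3, and the falls of the contractile smooth muscle genes Tagln and Cnn1. Pdgfrb, Rgs5, Mcam, Vtn and Ndufa4l2, mural cell genes of the same list, did not pass. Kcnj8 and Abcc9, the 2 parts of the pericyte potassium channel, rose by 1.04 ± 0.13 and 0.66 ± 0.15, and Cspg4, the NG2 proteoglycan, by 0.51 ± 0.12. Tagln, SM22 of smooth muscle and embryonic heart muscle, stood at 183, 215 and 204 CPM at E12.5 and 102, 116 and 96.9 CPM at E14.5 (-0.94 ± 0.15, adjusted p = 7e-05), and Cnn1, calponin, fell by 0.48 ± 0.10. Myh11 (-0.01 ± 0.27, adjusted p = 0.99), the smooth muscle myosin, did not pass. Of 7 lymphatic markers, 5 rose and 1 fell, or 3 rose when either E12.5 replicate 2 or E14.5 replicate 3 was left out. Ccl21a, a chemokine of lymphatic endothelium, stood at 2.08, 4.15 and 2.96 CPM at E12.5 and 8.88, 9.04 and 7.71 CPM at E14.5 (1.47 ± 0.17, adjusted p = 2e-07). Flt4, the receptor of VEGF-C, rose by 0.54 ± 0.10, and Reln fell by 0.56 ± 0.13.

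Genes of the matrix between cells rose, with 17 rises and no fall of 24 interstitial matrix genes (median 0.63) and 13 and none of 15 basement membrane genes (median 0.54). Eln, elastin, stood at 259, 311 and 291 CPM at E12.5 and 1029, 893 and 898 CPM at E14.5 (1.71 ± 0.21, adjusted p = 2.4e-06). Col14a1, a collagen that sits on the surface of fibrils, stood at 29.9, 28.7 and 32.1 CPM at E12.5 and 127, 123 and 122 CPM at E14.5 (2.03 ± 0.11, adjusted p = 2.2e-15). Col1a1, of the main fibrillar collagen, stood at 388, 492 and 469.5 CPM at E12.5 and 881, 895 and 802 CPM at E14.5 (0.93 ± 0.14, adjusted p = 8e-06). None of these groups overlapped. Col3a1, its partner in soft tissue, rose by 0.64 ± 0.10, and the collagen VI genes Col6a1, Col6a2 and Col6a3 by 1.02 ± 0.11, 0.95 ± 0.10 and 1.04 ± 0.12. Fn1, fibronectin (0.14 ± 0.12, adjusted p = 0.48), and Fbln1 (0.10 ± 0.11, adjusted p = 0.61) did not pass. The median transcripts of these lists were 5456 and 6450 nucleotides long, and with the length trend removed 15 interstitial and 11 basement membrane genes rose.

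In the basement membrane, the sheet beneath endothelium and around muscle cells, Col15a1 stood at 11.3, 15.2 and 13.2 CPM at E12.5 and 48.1, 57.3 and 57 CPM at E14.5 (2.03 ± 0.13, adjusted p = 5.9e-13). Hspg2, perlecan, stood at 679, 688 and 702 CPM at E12.5 and 1185, 1229 and 1171 CPM at E14.5 (0.79 ± 0.11, adjusted p = 2.2e-06). Both were higher in every E14.5 library. Lama2, the laminin chain around muscle cells, rose by 0.73 ± 0.07, and Lama5 by 0.67 ± 0.13. Col18a1 (-0.17 ± 0.12, adjusted p = 0.34) and Nid2 (-0.06 ± 0.11, adjusted p = 0.79) did not pass. The fibroblast markers, which hold several of the same collagens, gave 9 rises and 1 fall of 14 (median 0.58). Dpt, dermatopontin, stood at 3.13, 2.8 and 3.35 CPM at E12.5 and 14, 14.6 and 18.6 CPM at E14.5 (2.35 ± 0.15, adjusted p = 3.7e-12). Dcn, decorin, a proteoglycan of mature fibroblasts, stood at 59.7, 61.8 and 59.5 CPM at E12.5 and 152, 151 and 165 CPM at E14.5 (1.37 ± 0.12, adjusted p = 5e-10). Ogn rose by 1.20 ± 0.11 and Postn, periostin, by 0.78 ± 0.20. The genes that mark fibroblasts and their precursors rather than their matrix were not called higher. Pdgfra (-0.19 ± 0.11, adjusted p = 0.26) and Ddr2 (0.12 ± 0.09, adjusted p = 0.41) did not pass, and Tcf21 fell (-0.50 ± 0.14, adjusted p = 0.013), a call lost when E12.5 replicate 2 or E14.5 replicate 3 was left out (adjusted p up to 0.086).

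Genes of the cushions fell, with no rise and 9 falls of 16 endocardial and cushion markers (median -0.48). Hapln1, which links hyaluronan to proteoglycans in the cardiac jelly (chromosome 13, 89539796 to 89611652), stood at 83.6, 73.6 and 81.6 CPM at E12.5 and 29.2, 32 and 29.2 CPM at E14.5 (-1.40 ± 0.13, adjusted p = 7.1e-09). Twist1, a transcription factor of cushion mesenchyme, stood at 18.3, 15.1 and 15.5 CPM at E12.5 and 6.72, 5.92 and 7.16 CPM at E14.5 (-1.30 ± 0.17, adjusted p = 8.3e-07). Has2, the enzyme that makes hyaluronan, stood at 23.1, 22.6 and 24.5 CPM at E12.5 and 12.4, 12 and 13.7 CPM at E14.5 (-0.88 ± 0.15, adjusted p = 0.00011). In each of the 3 genes every E14.5 library was below every E12.5 library. Vcan, versican, the proteoglycan that Hapln1 binds, fell by 0.43 ± 0.09, Msx2 by 1.01 ± 0.21 and Sox9, a factor of mesenchyme and cartilage, by 0.59 ± 0.13. The endocardial genes Npr3 (0.24 ± 0.13, adjusted p = 0.25) and Plvap (-0.18 ± 0.10, adjusted p = 0.22) did not pass.

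Within the cardiac jelly list, which gave 3 rises and 4 falls of 14, Acan went against Hapln1 and Vcan. Acan, aggrecan, a proteoglycan of the same family as versican, stood at 4.6, 4.28 and 4.46 CPM at E12.5 and 26.3, 27.7 and 27.7 CPM at E14.5 (2.62 ± 0.21, adjusted p = 1.8e-09). Adamts5, a protease that cuts versican, rose by 0.65 ± 0.13. Acan was also the only rise among 7 cartilage markers, of which 3 fell. Col9a1, a cartilage collagen, stood at 44.7, 49.6 and 50.5 CPM at E12.5 and 26.3, 25.5 and 21.8 CPM at E14.5 (-0.98 ± 0.15, adjusted p = 1.4e-05). Col2a1, the main cartilage collagen, fell by 0.93 ± 0.25, a call lost when E12.5 replicate 2 or E14.5 replicate 3 was left out (adjusted p up to 0.07).

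Epicardial markers gave 2 rises and 6 falls of 14 (median -0.45), or 3 falls when either E12.5 replicate 2 or E14.5 replicate 3 was left out and 3 with the length trend removed. Upk3b, a membrane protein of mesothelium, stood at 87.1, 97.1 and 82 CPM at E12.5 and 51.3, 65.9 and 50.1 CPM at E14.5 (-0.67 ± 0.16, adjusted p = 0.0034). Msln, mesothelin, went the other way, at 5.78, 6.21 and 4.44 CPM at E12.5 and 12.9, 14.1 and 11.4 CPM at E14.5 (1.23 ± 0.17, adjusted p = 5.5e-06). The groups did not overlap in either. Tbx18, a transcription factor of the epicardium, fell by 0.42 ± 0.11, and Wt1, another, did not pass (-0.09 ± 0.14, adjusted p = 0.71). Aldh1a2, by which the epicardium makes retinoic acid, fell (-0.67 ± 0.20, adjusted p = 0.023), a call lost when E12.5 replicate 2, E12.5 replicate 3, E14.5 replicate 1 or E14.5 replicate 3 was left out (adjusted p up to 0.1). The list of the retinoic acid pathway gave no rise and 5 falls of 17, but 2 falls without E12.5 replicate 2, 3 without E12.5 replicate 3 or with the length trend removed and none without E14.5 replicate 3. It gave 1 rise without E12.5 replicate 2, with the length trend removed, in DESeq2, and in fits on the 6 or the 15 embryonic samples. The retinoic acid receptors Rara (0.02 ± 0.08, adjusted p = 0.89) and Rxra (-0.01 ± 0.11, adjusted p = 0.98) did not pass.

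Genes of the Wnt and Hedgehog pathways gave 4 rises and 8 falls of 23 (median -0.45). Of the ligands, Wnt9b stood at 7.46, 7.14 and 6.89 CPM at E12.5 and 2.87, 2.97 and 2.68 CPM at E14.5 (-1.33 ± 0.26, adjusted p = 0.00045). Wnt2 fell by 0.98 ± 0.22 and Wnt11 by 0.67 ± 0.14. Of the genes that report canonical signalling, Axin2, a target and feedback inhibitor, stood at 14.9, 15.7 and 14 CPM at E12.5 and 10.8, 10.4 and 8.92 CPM at E14.5 (-0.57 ± 0.14, adjusted p = 0.0035), and Lef1, a transcription factor of the pathway, fell by 0.72 ± 0.19. Wif1, a secreted inhibitor of Wnt ligands, rose, at 1.44, 1.11 and 1 CPM at E12.5 and 5.79, 3.69 and 4.91 CPM at E14.5 (2.02 ± 0.23, adjusted p = 5.9e-08). All 3 genes had separate groups. The falls numbered 5 without E14.5 replicate 3, and the rises 2 when any library but E12.5 replicate 3 and E14.5 replicate 2 was left out.

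Genes of BMP and TGF-beta signalling gave 5 rises and 6 falls of 26, or 3 falls when either E12.5 replicate 2 or E14.5 replicate 3 was left out or with the length trend removed. Bmp4, a ligand of the outflow tract, stood at 20.2, 19.97 and 23.7 CPM at E12.5 and 13.2, 13.1 and 10.5 CPM at E14.5 (-0.80 ± 0.13, adjusted p = 3.8e-05), and Id3, a target of BMP signalling, at 56, 62.6 and 59.8 CPM at E12.5 and 38.9, 36.8 and 37 CPM at E14.5 (-0.66 ± 0.12, adjusted p = 0.00017). Acvrl1, the endothelial receptor ALK1, rose, at 8, 6.92 and 7 CPM at E12.5 and 13.3, 12.9 and 14.4 CPM at E14.5 (0.89 ± 0.10, adjusted p = 1e-07). No library of one age crossed into the other in these genes. Id2 fell by 0.59 ± 0.15, whereas the receptors Bmpr1a (0.21 ± 0.10, adjusted p = 0.13) and Bmpr2 (0.19 ± 0.09, adjusted p = 0.13) did not pass. Of 12 Hox genes, which mark the posterior part of the second heart field, 4 fell and none rose, all at low levels, and 2 fell with the length trend removed or when any library but E12.5 replicate 1 and E14.5 replicate 1 was left out. Hoxa5 stood at 3.06, 4.17 and 3.65 CPM at E12.5 and 1.72, 1.18 and 1.02 CPM at E14.5 (-1.47 ± 0.38, adjusted p = 0.0059).

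Genes of the early embryo that bind RNA or chromatin fell almost as a whole list, with 10 falls and 1 rise of 11 (median -0.79). Like the other lists, this list was chosen with earlier results known, here the course of its genes in the same series. Its direction is therefore a description. Several of them are known targets of the let-7 microRNAs, which accumulate as tissues mature and whose processing Lin28a and Lin28b block. A microRNA binds through its seed, bases 2 to 8, to matching sites in the 3′ untranslated region of a messenger RNA. The sequences of 2 mature let-7 RNAs (RefSeq, GRCm38.p6) and of 4 sites (GRCm38, 5′ to 3′ on the gene's strand) show this match. Capitals mark the seed in the microRNAs and its complement, CTACCTC, in the sites.
mmu-let-7a-5p (chr13:48538239-48538260, minus strand): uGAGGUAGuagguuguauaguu
mmu-let-7g-5p (chr9:106178846-106178867, plus strand): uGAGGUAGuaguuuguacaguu
Trim71 (chr9:114509047-114509069, minus strand): tttagtatggattttCTACCTCa
Hmga2 (chr10:120364224-120364246, minus strand): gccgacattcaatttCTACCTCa
Lin28b (chr10:45381022-45381044, minus strand): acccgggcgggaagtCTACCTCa
Igf2bp1 (chr11:95961778-95961800, minus strand): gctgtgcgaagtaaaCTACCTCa
The motif CTACCTC was searched on the sense strand of the 3′ untranslated region. It was found in 10 of the 11 genes, in all but Tet1, with 4 sites each in Trim71, Hmga2, Lin28b and Igf2bp1, 2 in Lin28a and 1 in each of the others. Of 15158 tested genes with such a region, 10.31% held at least 1 site and 1.3% at least 2. Genes with a site fell in 11.84% of cases, those with at least 2 sites in 18.78% and those without in 9.34%. They also rose more often, in 14.97% of cases with a site and 14.21% with at least 2, against 11.97% without. The median change was 0.0043 with a site, -0.0308 with at least 2 and -0.0238 without, and genes with sites had longer regions. With the length trend removed, these medians were -0.0335, -0.1171 and 0.0153. MicroRNAs were not measured, and a match does not show that a site is used.

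Trim71, a ubiquitin ligase and RNA-binding repressor of stem cells, stood at 3.16, 3.1 and 3.54 CPM at E12.5 and 0.622, 0.786 and 0.629 CPM at E14.5 (-2.26 ± 0.30, adjusted p = 3.8e-06). Hmga2, a chromatin protein that bends DNA, stood at 48.6, 44.4 and 47.1 CPM at E12.5 and 19.96, 16.8 and 18.6 CPM at E14.5 (-1.34 ± 0.12, adjusted p = 9.7e-10). Igf2bp1, which binds the messenger RNA of Igf2 and others, stood at 153, 163 and 156 CPM at E12.5 and 94.9, 95 and 83.9 CPM at E14.5 (-0.79 ± 0.10, adjusted p = 7.1e-07). All of these had separate groups. Arid3b, a DNA-binding protein, fell by 0.94 ± 0.12. The falls of Lin28b (-0.73 ± 0.24, adjusted p = 0.03) and Igf2bp3 (-0.32 ± 0.12, adjusted p = 0.049) passed narrowly. The first lost its call when any 1 library but E12.5 replicate 2 was left out (adjusted p up to 0.088), and the other lost its call when any 1 of the 6 libraries was left out (adjusted p up to 0.18). Lin28a was low, at 0.906, 0.586 and 0.609 CPM at E12.5 and 0.287, 0.393 and 0.121 CPM at E14.5 (-1.37 ± 0.46, adjusted p = 0.038), and lost its call when any 1 library but E14.5 replicate 2 was left out (adjusted p up to 0.19). Sall4, a zinc finger factor of stem cells, fell by 1.01 ± 0.25, a call lost when E12.5 replicate 2 was left out (adjusted p = 0.052). The rise was in Tet1, which oxidises methylated cytosine (0.44 ± 0.12, adjusted p = 0.014). It lost its call when E12.5 replicate 2 or E14.5 replicate 3 was left out (adjusted p up to 0.064) and did not pass with the length trend removed (0.13, adjusted p = 0.33).

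Imprinted growth genes, which are read from 1 parental copy and adjust growth before birth, gave 1 rise and 5 falls of 20. The rise, in Dlk1, a membrane protein of the Notch ligand family (0.46 ± 0.14, adjusted p = 0.022), lost its call when E12.5 replicate 1, E12.5 replicate 3, E14.5 replicate 1 or E14.5 replicate 2 was left out (adjusted p up to 0.14). Cdkn1c, a cell cycle inhibitor read from the maternal copy, stood at 576, 532 and 492 CPM at E12.5 and 301, 307 and 266 CPM at E14.5 (-0.87 ± 0.15, adjusted p = 0.00011). Nnat, neuronatin, stood at 46.3, 48.7 and 50.5 CPM at E12.5 and 24.7, 24.5 and 23.6 CPM at E14.5 (-0.998 ± 0.17, adjusted p = 0.00012). Both were lower in every E14.5 library. H19, a noncoding RNA next to Igf2, fell by 0.34 ± 0.10 (adjusted p = 0.016), a call lost when E12.5 replicate 2, E14.5 replicate 1 or E14.5 replicate 3 was left out (adjusted p up to 0.075), and it did not pass with the length trend removed (adjusted p = 0.17). Igf2, the growth factor of the same locus, stood at 1968, 2029.5 and 1981 CPM at E12.5 and 1939, 1942 and 1895 CPM at E14.5 (-0.05 ± 0.10, adjusted p = 0.79). Every E14.5 library was slightly lower, by less than the fit's error.

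Genes of the cell cycle were called rarely. None of 25 S phase genes was called in edgeR on all 30 samples or in DESeq2, and 1 was lower at an unadjusted p under 0.05. Their median change was -0.28. In a fit on the 6 samples alone 17 of them fell, and in one on the 15 embryonic samples 12. Mcm2, of the helicase that opens DNA for replication, stood at 147, 166 and 146 CPM at E12.5 and 118, 116 and 107 CPM at E14.5 (-0.42 ± 0.24, adjusted p = 0.24). Of 25 G2/M phase genes only Cenpf, a long kinetochore protein, rose (0.51 ± 0.13, adjusted p = 0.0071), and it did not pass with the length trend removed (adjusted p = 0.2). In a fit on the 6 samples alone 6 of these genes rose and 7 fell, and in one on the 15 embryonic samples 5 rose. Mki67, the proliferation marker, stood at 162, 158 and 176 CPM at E12.5 and 196, 226 and 221 CPM at E14.5 (0.37 ± 0.30, adjusted p = 0.43), and Ccnb1, cyclin B1, did not pass (-0.17 ± 0.35, adjusted p = 0.8). Among 9 inhibitors of the cycle, Cdkn2c, p18, stood at 11.1, 10.1 and 10.6 CPM at E12.5 and 16.6, 17.4 and 17.5 CPM at E14.5 (0.70 ± 0.17, adjusted p = 0.0036), and 3 rose and 1 fell in all. The groups did not overlap in Mcm2, Mki67 or Cdkn2c.

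Cytosolic ribosomal protein genes, whose median transcript was 1191.5 nucleotides long, gave no rise and 18 falls of 40 (median -0.35). This count depended on the fit. It was 4 with the length trend removed (median -0.12), 39 in a fit on the 6 samples alone, 40 without E10.5 replicate 2, 11 without E12.5 replicate 2 and 8 without E14.5 replicate 1. Rpl30 stood at 234, 203 and 218 CPM at E12.5 and 148, 132 and 147 CPM at E14.5 (-0.62 ± 0.19, adjusted p = 0.027). Its libraries were separate, but it lost its call when any 1 library but E12.5 replicate 2 was left out (adjusted p up to 0.093) and did not pass with the length trend removed (adjusted p = 0.071). None of 7 small RNAs without a poly(A) tail was called in edgeR on all 30 samples or in DESeq2, and none had an unadjusted p under 0.05, while 2 fell in a fit on the 6 samples alone and 1 without E10.5 replicate 2. Rn7sk, a small nuclear RNA, stood at 11641, 12417 and 12234 CPM at E12.5 and 8088, 12601 and 11869.8 CPM at E14.5 (-0.16 ± 0.43, adjusted p = 0.85), so RNA without such a tail was present at both ages.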

How the data were processed

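Hearts of wild-type mice were sequenced at 10 ages with 3 libraries each. The authors deposited 1 table of expected counts per gene for all 30 samples. Tools and builds in the submitters' processing notes are STAR 2.5.3a, fastp 0.18.0, mm10 and GRCm38. How genes were counted, with which annotation and strand, is not given in the sources used here, which leaves overlapping and antisense genes uncertain. Of all values, 6.94% were not whole (tolerance 1e-06), and all were rounded. Symbols and positions came from GENCODE M21 for 48144 of 48820 genes, by identifier without version; genes without a symbol held 0.225% of counts. Totals ranged from 23164934 to 50519452 counts over the 30 libraries.

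Genes were kept by filterByExpr and tested in edgeR 4.0.16 (R 4.3.3) with TMM scaling, robust quasi-likelihood F tests and Benjamini-Hochberg adjustment. The fit held all 30 samples as 10 group means (20 residual degrees of freedom). SE is the absolute log2 change over the square root of F. The procedure was tested on simulated data. Named genes were the 15 largest rises and falls (at least 10 CPM at one age, no overlap between ages), the 6 such genes each way with the highest level, the 6 largest called changes each way of each of 54 lists, a panel of 45 genes, and list members that did not pass, with their values. One gene that the rule names is not reported here. The members and lists were chosen with earlier results of these data known. Of 848 listed genes, 827 were tested. Shares of counts were compared by exact permutation tests, 2-sided. The length trend was removed by a smooth offset on transcript length, an alternative added after the data were seen. DESeq2 1.42.0 and limma 3.58.1 were also used in R; tables, figures and sequence searches used Python 3.11.15, numpy 2.4.6, pandas 2.3.3, scipy 1.17.1 and matplotlib 3.10.9.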

Additional observations from a re-analysis of the deposited data

How the results depend on the processing

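The genes that rose and fell numbered 2023 and 1504. They were 2114 and 1397 with RLE size factors, 1719 and 1558 with library size alone, 2238 and 1323 with upper quartile factors, 1789 and 1244 without a filter, 2139 and 1546 with 1 CPM in 3 libraries, 1985 and 1570 without mitochondrially encoded and globin genes, and 2346 and 1660 with DESeq2. The 15 embryonic samples gave 2076 and 1554, and leaving out E10.5 replicate 2, which stood apart in the length index (-0.548), gave 2427 and 2151. Only the fit on the 6 samples moved a total by more than 1.5 times upwards, to 3006 rises and 3200 falls. Leaving out 1 library of the 6 gave 1434 to 1643 rises and 773 to 1206 falls. Of 267 named genes called, 190 kept their call without each library in turn and 77 lost it without at least 1. With the length trend removed, 69.12% of all calls were kept; with this and the 6 samples alone there were 2820 rises and 2173 falls. Uqcrb turned from -0.31 to 0.0448 (0.0404 with the 6 samples). The difference in the mitochondrially encoded share, which no test called, turned from -0.0792 to 0.107 points with medians and, leaving out 1 library, ranged from -0.263 to 0.17 (0.17 without E12.5 replicate 1 and 0.00295 without E14.5 replicate 2). The cause of these shifts was not tested. Replicate numbers did not pair the samples: the deviations of same-numbered libraries correlated at -0.00952, 0.0345 and -0.0109, and a replicate block gave 2099 rises and 1657 falls. With 3 libraries an age, genes at a few CPM carried wide errors.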

Other observations

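Macrophage markers were higher at E14.5, with 7 rises and no fall of 16 (median 0.50), or 4 rises without E14.5 replicate 2. C1qa, a complement component made by tissue macrophages, stood at 7.32, 6.58 and 6.24 CPM at E12.5 and 9.76, 10.2 and 11.5 CPM at E14.5 (0.65 ± 0.15, adjusted p = 0.0019). Ptprc, the common leukocyte antigen CD45, stood at 1.84, 1.95 and 3.04 CPM at E12.5 and 4.62, 4.18 and 4.86 CPM at E14.5 (0.99 ± 0.17, adjusted p = 4.7e-05). Every E14.5 library was above those of E12.5 in both. Csf1r, the receptor for the growth factor of macrophages, rose by 0.55 ± 0.09, whereas Lyz2, lysozyme of myeloid cells (-0.14 ± 0.11, adjusted p = 0.45), and Cx3cr1 (0.30 ± 0.15, adjusted p = 0.16) did not pass. Of 20 interferon response genes 4 rose and none fell, and of 13 MHC genes 3 rose and none fell. Gbp2, a guanylate-binding protein, rose by 0.84 ± 0.20 and Tap2, a peptide transporter of antigen presentation, by 0.91 ± 0.21. Isg15 (0.13 ± 0.35, adjusted p = 0.86) and B2m (-0.02 ± 0.18, adjusted p = 0.97) did not pass.

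Markers of nerve, Schwann cells and neural crest gave 5 rises and 2 falls of 19, or 2 rises without E12.5 replicate 1, all but Erbb3 and Tubb3 at low levels. Dbh, the enzyme that makes noradrenaline, stood at 0.171, 0.629 and 0.196 CPM at E12.5 and 1.29, 0.688 and 1.28 CPM at E14.5 (1.68 ± 0.41, adjusted p = 0.0035). Gfra2, a receptor subunit of parasympathetic neurons, rose by 0.97 ± 0.21. Tubb3, a tubulin of neurons, fell, at 9.72, 9.9 and 11 CPM at E12.5 and 5.43, 5.53 and 4.93 CPM at E14.5 (-0.95 ± 0.21, adjusted p = 0.0015), and Erbb3, a neuregulin receptor of Schwann cells and cushion mesenchyme, by 0.53 ± 0.10. Sox10, of neural crest and Schwann cells, did not pass (-0.76 ± 0.32, adjusted p = 0.099). None of 8 lymphocyte and granulocyte markers was called in edgeR or in DESeq2, and none had an unadjusted p under 0.05. Of 20 immediate early genes, Egr2 (1.42 ± 0.44, adjusted p = 0.021) and Ier3 (0.46 ± 0.11, adjusted p = 0.0038) rose and Ier2 (-0.42 ± 0.12, adjusted p = 0.011) fell. Only Ahsg of 9 liver markers (1.17 ± 0.37, adjusted p = 0.027) and Grhl2 of 8 lung and foregut markers (0.90 ± 0.25, adjusted p = 0.011) rose, and among 7 skeletal muscle markers Myh8, a perinatal myosin, rose (1.28 ± 0.19, adjusted p = 6.9e-06) and 3 fell, or 1 fell without E12.5 replicate 2, E14.5 replicate 1 or E14.5 replicate 3 or with the length trend removed. Egr2 lost its call when E12.5 replicate 1, E12.5 replicate 2 or E14.5 replicate 3 was left out (adjusted p up to 0.084), Ahsg lost its call when E12.5 replicate 1, E12.5 replicate 3, E14.5 replicate 1 or E14.5 replicate 3 was left out (adjusted p up to 0.12) and Grhl2 lost its call when E12.5 replicate 1 or E14.5 replicate 1 was left out (adjusted p up to 0.093).

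The levels at E16.5 place the change beside the next age. The E16.5 comparison shares the E12.5 libraries, so the values are set side by side only. For Ckm, the log2 change from E12.5 was 2.77 at E14.5 and 5.61 at E16.5, for Myom2 3.02 and 5.44, and for Hapln1 -1.40 and -3.49. For Tead1 it was 0.59 and 0.08, for Hspg2 0.79 and 0.46, and for Aldh1a2 -0.67 and -0.20. The adult globin gene Hba-a1 was at -1.89 and 0.29.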
